A study of Mus musculus with 6 samples.

Results

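The genes described here were chosen by symbol. They are Rpph1, Rmrp and Rn7sk, short structured RNAs made by RNA polymerase III, and the RNase P-like genes Rprl1, Rprl2 and Rprl3. Of these 6 names, 5 had a row among the 30510 features of the count table, and Rn7sk was not analysed here. Retinal RNA was compared between DBA/2J (D2) and C57BL/6J (B6), inbred mouse strains that the labels call wild type, with 3 libraries each. D2 is a pigmented strain that develops a pigmentary glaucoma with age, and B6 is the strain of the mouse reference genome. All libraries came from retina of mice aged 60 to 100 days and were made with a stranded total RNA kit from RNA with an integrity number of 9.1 to 9.5. Whether each library is a separate mouse is not stated in the labels, and p-values then reflect only variation among libraries, which could be technical. The genes were proposed with strain differences of these data already known, so their own differences are given as a description with no test.

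RNase P is the ribonucleoprotein that removes the 5′ leader from precursor tRNAs, and its catalytic RNA is the product of Rpph1. RNase MRP is built from many of the same proteins around another RNA, Rmrp, and acts on ribosomal RNA precursors. Human RMRP is mutated in cartilage-hair hypoplasia. The 7SK RNA, product of Rn7sk, holds the elongation kinase P-TEFb in an inactive particle. RNA polymerase III reads Rpph1, Rmrp and Rn7sk from promoters that lie upstream of the transcript, unlike the internal promoters of tRNA genes. The Rprl genes are annotated as RNase P RNA-like, and no function, promoter or polymerase is assigned to them here.

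The sequences of Rpph1 and of its most counted relatives are shown because they hold most counts of the family. They are the transcripts of GENCODE release M21 on GRCm38 (mm10), written as DNA from 5′ to 3′. Rpph1 lies at chr14:50807449-50807767 on the minus strand, and its first 257 bases (chr14:50807511-50807767) are printed, Rprl3 at chr8:3803069-3803358 on the minus strand and Rprl2 at chr3:22251374-22251663 on the plus strand. Capitals mark the bases of Rprl3 and Rprl2 that differ from Rpph1 within the stretch that aligns to it.
Rpph1: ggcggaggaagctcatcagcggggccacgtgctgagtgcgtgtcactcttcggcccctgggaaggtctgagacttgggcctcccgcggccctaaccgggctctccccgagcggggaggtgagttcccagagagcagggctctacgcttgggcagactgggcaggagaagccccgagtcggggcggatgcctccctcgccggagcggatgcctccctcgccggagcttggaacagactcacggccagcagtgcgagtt
Rprl3: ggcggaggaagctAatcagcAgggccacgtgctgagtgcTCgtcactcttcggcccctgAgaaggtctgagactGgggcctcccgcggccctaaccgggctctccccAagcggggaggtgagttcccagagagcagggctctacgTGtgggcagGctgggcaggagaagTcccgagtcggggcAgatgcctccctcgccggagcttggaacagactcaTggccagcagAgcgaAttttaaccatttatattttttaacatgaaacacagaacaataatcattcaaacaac
Rprl2: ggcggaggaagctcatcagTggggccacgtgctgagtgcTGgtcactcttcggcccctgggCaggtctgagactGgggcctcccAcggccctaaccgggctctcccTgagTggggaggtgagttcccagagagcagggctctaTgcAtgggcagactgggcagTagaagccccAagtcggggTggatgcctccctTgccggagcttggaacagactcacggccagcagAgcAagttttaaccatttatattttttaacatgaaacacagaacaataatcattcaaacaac

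Rpph1 is annotated at 319 bases and Rprl3 and Rprl2 at 290 bases each, all with the ribozyme biotype. Rprl1, on the minus strand of chromosome 6 (69326844 to 69327170), is annotated at 327 bases as a ribozyme, and a second, shorter model of 238 bases overlaps it. Each Rprl gene aligned to Rpph1 from the first base over 236 aligned base pairs. Identity there was 93.6% for Rprl3 (15 differences), 93.2% for Rprl2 (16 differences) and 91.1% for Rprl1 (21 differences). All 3 lacked the same 21 bases of Rpph1, within a stretch where Rpph1 holds 2 overlapping copies of a run of 23 bases. Of 38 positions at which any Rprl gene differed from Rpph1, 3 carried the same base in all 3. After the aligned stretch, the Rprl sequences left that of Rpph1 and continued alike: their next 54 bases were identical between Rprl3 and Rprl2, and 53 of 54 matched between Rprl1 and either of them.

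**Figure D1:**
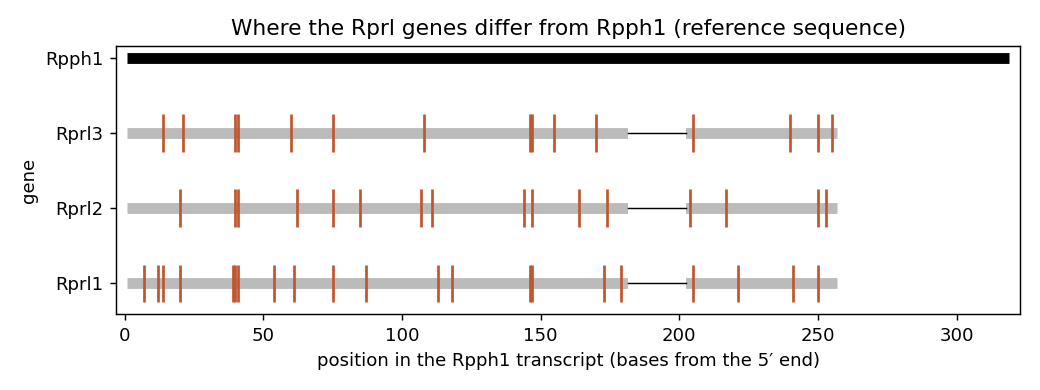
Positions in the Rpph1 transcript (horizontal axis, bases from the 5′ end) at which each Rprl gene differs in the reference sequence. Grey bars are the aligned stretch, red ticks are differing bases, and the thin line marks the 21 bases absent from all 3 Rprl genes; the stretch ends at base 257 of 319.

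The longest run shared without a difference was 37 bases between Rpph1 and Rprl3, 32 between Rpph1 and Rprl2 and 27 between Rpph1 and Rprl1. No window of 50 bases of any Rprl gene occurred in Rpph1. Rprl3 and Rprl2 shared a run of 56 bases, and 7 of the 241 windows of 50 bases of Rprl3 were also found in Rprl2. Read length, the counter and its handling of reads that align to several places were not stated. Reads of D2 were aligned to a reference of the B6 strain, and the sequence of these loci in D2 was not analysed here. How reads were divided among Rpph1 and the Rprl genes is therefore uncertain for each of them.

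The libraries held 29417002, 31863814 and 34478751 counts in D2 and 43719666, 41256892 and 31305777 counts in B6, so that a count of 0 allowed up to 0.0870 to 0.102 CPM (counts scaled by library size) in D2 and 0.0686 to 0.0958 CPM in B6, at 3 counts. Rod markers summed to 42337 to 44414 CPM in D2 and 48593 to 50109 CPM in B6, with 1 of 6 called lower in D2, and Mueller glia markers to 3672 to 4014 CPM in D2 and 4092 to 4407 CPM in B6, with 1 of 4 called lower. Of lens and pigment epithelium markers 0 were called by edgeR, but both varied widely between libraries of a strain. Pigment epithelium markers summed to 35.7 to 123 CPM in D2 and 51.6 to 153 CPM in B6. Lens markers summed to 3.74 to 11.5 CPM in D2 and 1.64 to 27.4 CPM in B6. For muscle, 1 of 3 tested markers was higher in D2. Of all 18588 tested genes, edgeR called 29.7% at an adjusted p under 0.05, 14.5% higher and 15.3% lower in D2. Erythrocyte markers were higher in D2 for 4 of 5 genes, at a summed 127 to 259.8 CPM in D2 and 71.6 to 111 CPM in B6, and their part in the results was not tested. The share of 18S ribosomal RNA (Rn18s) was 1.63%, 0.823% and 0.541% in D2 replicates 1, 2 and 3 and 0.756%, 0.565% and 1.08% in B6 replicates 1, 2 and 3.

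Rprl3, a relative of the RNase P RNA gene, was far more counted in D2. It had 9249, 6491 and 10650 counts in D2 replicates 1, 2 and 3, against 6, 2 and 1 counts in B6 replicates 1, 2 and 3. The groups did not overlap, with every B6 library at 6 counts or fewer. Scaled for library size and composition, Rprl3 averaged 276 ± 66.2 CPM in D2 and 0.0730 ± 0.0575 CPM in B6 (SD, n = 3 each), a log2 difference of 11.73. The ratio of the summed counts, scaled in the same way, was 3535, with an exact 95% counting interval of 1862 to 7732. Intervals of this kind cover counting error only. Without B6 replicate 1, which held most of the B6 counts, the log2 difference was 12.58. By rank among all features, Rprl3 stood at 366, 786 and 396 in D2 replicates 1, 2 and 3 and at 19473, 21037 and 21278 in B6 replicates 1, 2 and 3.

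Rprl2 was also far more counted in D2, and of the 5 genes it had the widest spread among D2 libraries. Its counts were 5026, 300 and 3517 in D2 replicates 1, 2 and 3, against 5, 1 and 0 in B6 replicates 1, 2 and 3. The groups did not overlap, but D2 replicate 2 held 18.9-fold less than D2 replicate 1 after scaling. Mean levels were 94.9 ± 82.7 CPM in D2 and 0.0466 ± 0.0610 CPM in B6 (SD, n = 3 each), and the log2 difference was 10.74. The ratio of summed counts, scaled for library size and composition, was 1777 (counting interval 816 to 4843). Leaving out B6 replicate 1 gave a log2 difference of 12.40, and leaving out D2 replicate 1 gave 9.98.

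Rprl1, the least counted of the RNase P-like genes, had 70, 27 and 51 counts in D2 replicates 1, 2 and 3. In B6 it had 1 count in replicate 1 and 0 in replicates 2 and 3. Its level was 1.58 ± 0.804 CPM in D2 and 0.00771 ± 0.0134 CPM in B6 (SD, n = 3 each). Summed counts were 148 in D2 against 1 in B6. Their ratio, scaled for library size and composition, was 178 with a counting interval of 31.5 to 7095. The fitted log2 difference was 7.0, and it was 8.72 without B6 replicate 1 and 6.24 by limma-voom.

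Rpph1, the RNase P RNA gene, was among the most counted features of every library and overlapped between the strains. Its counts were 96530, 87646 and 139500 in D2 replicates 1, 2 and 3, and 160799, 156891 and 103592 in B6 replicates 1, 2 and 3. It ranked between 12 and 19 in D2 and between 13 and 15 in B6. After scaling, levels were 3347, 2695 and 4014 CPM in the D2 replicates and 3718, 3778 and 3331 CPM in the B6 replicates. The highest and the lowest library were both of D2. Means were 3352 ± 659.5 CPM in D2 and 3609 ± 243 CPM in B6 (SD, n = 3 each), with a log2 difference of -0.11 ± 0.10 (SE). That value moved to 0.03 without D2 replicate 2 and to -0.26 without D2 replicate 3.

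Rmrp, the RNase MRP RNA gene on the minus strand of chromosome 4 (43492788 to 43493058, 271 bases), had 49405, 51065 and 72535 counts in D2 replicates 1, 2 and 3. In B6 replicates 1, 2 and 3 it had 60897, 75490 and 55487. Scaled levels were 1713, 1570 and 2087 CPM in the D2 replicates and 1408, 1818 and 1784 CPM in the B6 replicates, and the strains overlapped. Rmrp averaged 1790 ± 267 CPM in D2 and 1670.1 ± 227 CPM in B6 (SD, n = 3 each), a log2 difference of 0.10 ± 0.10. Without D2 replicate 3 it was -0.02, and without B6 replicate 1 it was -0.01.

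**Figure D2:**
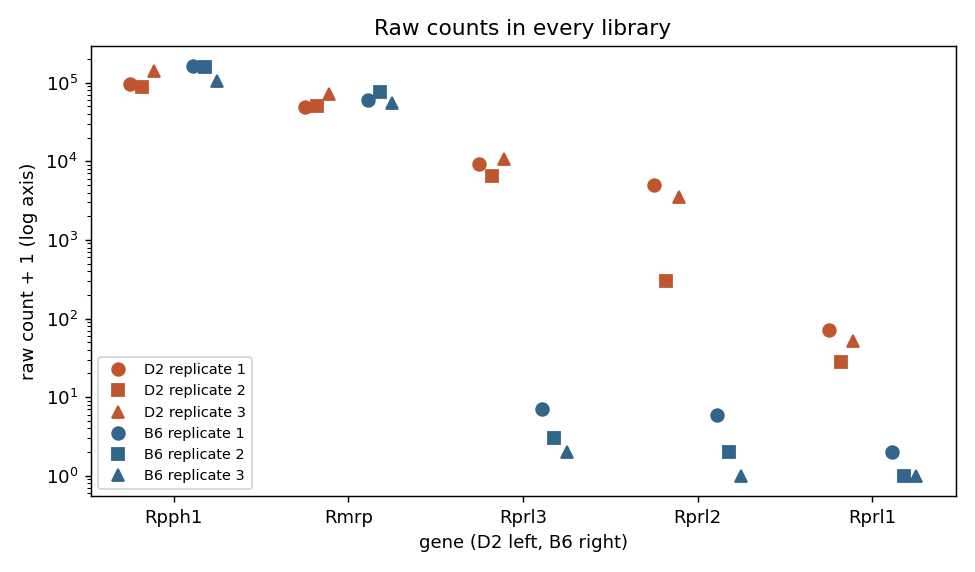
Raw count plus 1 on a log axis for each gene in each library, with D2 libraries (red) left of B6 libraries (blue) and a marker shape for each replicate. Rpph1 and Rmrp overlap between the strains, while Rprl3, Rprl2 and Rprl1 hold 27 to 10650 counts in D2 and 0 to 6 in B6.

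Among the 5 genes, the libraries of the strains did not overlap for 3, the Rprl genes, where this held for 42.3% of all 18588 tested genes. All 5 passed the filter on low counts, the Rprl genes only through their D2 libraries. The count is given for description, since the genes were proposed with these differences known. Per kilobase of annotated transcript, mean levels in D2 ranked in the order Rpph1 (10509 CPM per kb), Rmrp (6606), Rprl3 (950.3), Rprl2 (327) and Rprl1 (4.82). In B6 the order was Rpph1 (11314 CPM per kb), Rmrp (6163), Rprl3 (0.252), Rprl2 (0.161) and Rprl1 (0.0236). In D2 the libraries of each neighbouring pair in that order did not overlap. Rprl3 stood at 688 to 1106 and Rprl2 at 31.8 to 601 CPM per kb, and the lowest Rpph1 library (8449 CPM per kb) was close to the highest Rmrp library (7702 CPM per kb). In B6 Rpph1 and Rmrp did not overlap, and the Rprl genes, at 6 counts or fewer in every library, could not be ordered.

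Within each D2 library, counts on Rprl3 were a fairly even share of those on Rpph1, and counts on Rprl2 were not. Rprl3 came to 9.58%, 7.41% and 7.63% of the Rpph1 count in D2 replicates 1, 2 and 3, and to 0.00373%, 0.00127% and 0.000965% in B6 replicates 1, 2 and 3. Rprl2 came to 5.21%, 0.342% and 2.52% of the Rpph1 count in D2 replicates 1, 2 and 3, and to 0.00311%, 0.000637% and 0 in B6 replicates 1, 2 and 3. Between the highest and the lowest D2 library the scaled level differed by 18.9-fold for Rprl2 and by 1.61-fold for Rprl3.

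Of all counts on Rpph1 and the Rprl genes, the Rprl genes held 12.9%, 7.22% and 9.25% in D2 replicates 1, 2 and 3 (exact Clopper-Pearson 95% intervals 12.7 to 13.1, 7.05 to 7.38 and 9.11 to 9.40). In B6 replicates 1, 2 and 3 they held 0.00746%, 0.00191% and 0.000965% (intervals 0.00386 to 0.0130, 0.000394 to 0.00559 and 2.44e-05 to 0.00538). Every D2 share lay above every B6 share.

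**Figure D3:**
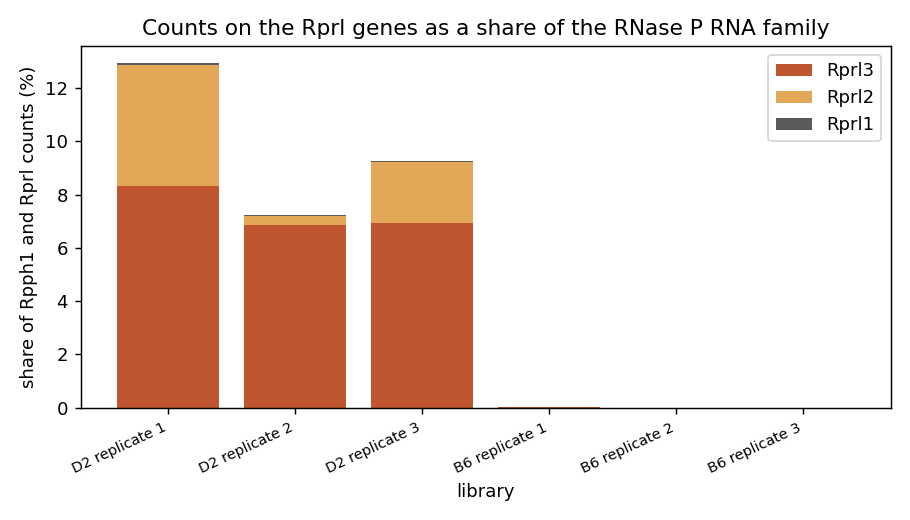
Counts on Rprl3, Rprl2 and Rprl1 as a percentage of all counts on Rpph1 and the Rprl genes, 1 stacked bar per library, D2 left of B6. The D2 bars reach 12.9%, 7.22% and 9.25%, and the B6 bars are at most 0.00746% and not visible at this scale.

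Summed over Rpph1 and the Rprl genes, the level was 3844, 2905 and 4423 CPM in D2 replicates 1, 2 and 3, and 3719, 3778 and 3331 CPM in B6 replicates 1, 2 and 3. The sum averaged 3724 ± 766 CPM in D2 and 3609 ± 243 CPM in B6 (SD, n = 3 each). Its log2 difference was 0.05 ± 0.11, against -0.11 ± 0.10 for Rpph1 alone, and it ranged from -0.10 to 0.20 when each library was left out in turn. For either measure the difference was within the spread between libraries.

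Recovery of short RNAs depends on the size selection of a library, so their spread was set beside other small RNAs. The other features whose symbol carries a small RNA biotype in at least 1 gene model summed to 1122, 1104 and 1190 CPM in D2 replicates 1, 2 and 3, against 1216, 1221 and 1256 CPM in B6 replicates 1, 2 and 3. The highest D2 library exceeded the lowest by 1.08-fold for this sum, by 1.49-fold for Rpph1 and by 1.33-fold for Rmrp. Among B6 libraries these gaps were 1.03-fold, 1.13-fold and 1.29-fold. D2 replicate 2 was the lowest D2 library, and D2 replicate 3 the highest, for all 3 measures. Scarna2 held most of the summed counts, such as 29415 of 52583 in B6 replicate 1, so the sum does not give the spread of each feature. Scarna6 spread widely, at 27.3 ± 5.05 CPM in D2 and 26.2 ± 3.89 CPM in B6 (SD). Scarna13 spread little, at 77.0 ± 1.43 CPM in D2 and 82.1 ± 2.35 CPM in B6. The ratio of Rpph1 to Rmrp counts was 1.95, 1.72 and 1.92 in D2 replicates 1, 2 and 3 and 2.64, 2.08 and 1.87 in B6 replicates 1, 2 and 3, and the strains overlapped. The part of size selection in these values was not tested.

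**Figure D4:**
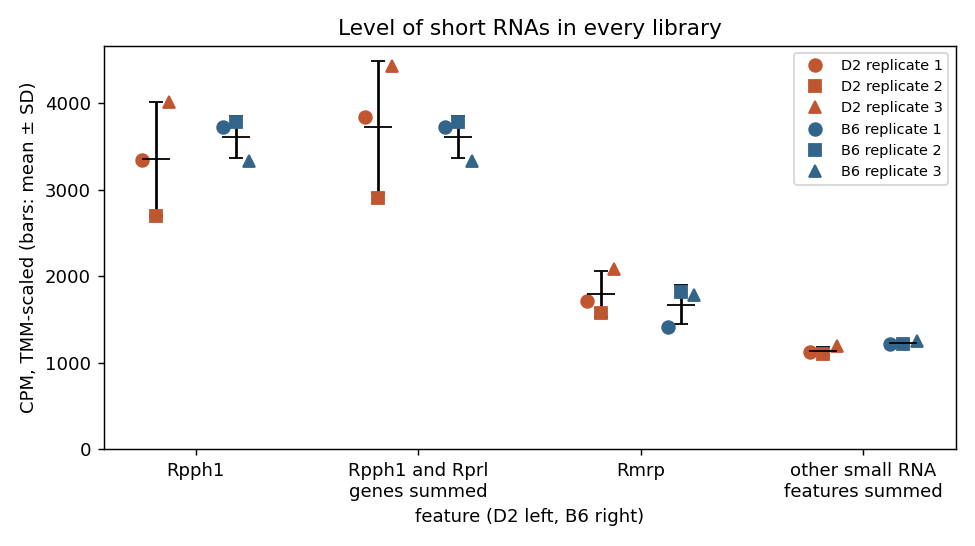
TMM-scaled CPM of Rpph1, of Rpph1 and the Rprl genes summed, of Rmrp and of all other small RNA features summed, per library, D2 (red) left of B6 (blue), with the mean and SD in black. D2 replicate 2 is the lowest D2 library in each, and the sum of the other small RNA features varies least.

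In the authors' deposited table of scaled scores, which gives strain means on an axis with a mean over genes of 8.01 in D2 and 8.0 in B6, Rpph1 scored 13.9 in D2 and 14.0 in B6, ranks 14 and 12 of 18100. There Rmrp scored 13.2 in both strains. Rprl3 scored 6.56 in D2 and 1.74 in B6, and Rprl2 scored 4.56 in D2 and 1.35 in B6 in the authors' deposited table. The order of the strains was that of the counts for Rprl3 and Rprl2, but their D2 scores ranked low, at 13394 and 17530 of 18100. By raw count among all features, the D2 libraries ranked Rprl3 at 366 to 786 and Rprl2 at 987 to 10848. The deposited scores therefore do not show the high D2 level of the counts, and the cause was not tested.

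Genes next to these loci were read from the same fit. Ccnb1ip1, whose annotated transcripts overlap Rpph1 on the same strand and hold 70.2% of its words of 31 bases, had 22, 41 and 36 counts in D2 replicates 1, 2 and 3 and 0 in each B6 library. With a floor of 3 counts in each B6 library it was at least 13.3-fold higher in D2 (adjusted p = 1.74e-06 by the quasi-likelihood test of edgeR). Like the Rprl genes, Ccnb1ip1 passed the filter on low counts only through its D2 libraries, which limits this p-value. At most 41 of its counts stood in any library, against 87646 or more for Rpph1, and the counting of their shared sequence is uncertain. Parp2, a poly(ADP-ribose) polymerase gene that starts 74 bases beyond the 5′ end of Rpph1 on the opposite strand, rose 1.51-fold in D2. Its levels were 42.9, 46.3 and 42.6 CPM in D2 replicates 1, 2 and 3 and 29.9, 27.9 and 29.6 CPM in B6 replicates 1, 2 and 3, without overlap (log2 difference 0.59 ± 0.05, adjusted p = 1.91e-07 by edgeR). On the other side Ttc5 fell 1.13-fold in D2, with 47.2 ± 2.19 CPM in D2 and 53.3 ± 3.21 CPM in B6 (adjusted p = 0.0166 by edgeR), a call lost without D2 replicate 1, D2 replicate 2 or B6 replicate 1.

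Rmrp overlaps Ccdc107, which lies on the opposite strand and holds 39% of its words of 31 bases in antisense. Ccdc107 averaged 45.9 ± 1.58 CPM in D2 and 45.2 ± 1.59 CPM in B6 (SD, n = 3 each; log2 difference 0.02 ± 0.04, adjusted p = 0.725 by edgeR). Whether the counting used strand was not stated, so the division of reads between these overlapping genes is uncertain. Arhgef39, on the other side, had a log2 difference of 0.02 ± 0.13 (adjusted p = 0.923 by edgeR), and Sit1 had 1 count in all. The log2 difference of Arhgef39 was -0.045 without D2 replicate 1 and -0.064 without B6 replicate 1.

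The nearest counted gene to Rprl2 on the lower side, 34780 bases away, was Tbl1xr1, which encodes a corepressor subunit. Tbl1xr1 rose 1.14-fold in D2, at 72.1 ± 2.62 CPM in D2 and 63 ± 3.02 CPM in B6 (log2 difference 0.19 ± 0.04, adjusted p = 0.00329 by edgeR). Rprl3 lies between the lectin receptor genes Cd209a and Cd209e, at distances of 54085 and 44607 bases. Cd209a had 0, 2 and 0 counts in D2 replicates 1, 2 and 3 and 0, 1 and 1 in B6 replicates 1, 2 and 3, and Cd209e had none. Rprl1 lies in the immunoglobulin kappa variable region, between the pseudogenes Igkv12-67 and Igkv12-66, which had no count. Gm37889, on the far side of Rprl2, had none either. Genes around Rn7sk were read as well: Gsta4, a glutathione transferase, rose 1.64-fold in D2 (38.3 ± 0.731 CPM in D2 and 23.3 ± 0.424 CPM in B6, adjusted p = 7.86e-09 by edgeR), and Ick had a log2 difference of -0.08 ± 0.04 (adjusted p = 0.122 by edgeR).

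The proteins that join these RNAs were compared with the same test, which called 29.7% of all tested genes, 14.5% higher and 15.3% lower in D2, with a median log2 difference of 0.00. Of the 11 proteins of RNase P and RNase MRP, 2 rose, 2 fell and 7 did not pass, with a median of 0.07. Rpp40, a protein subunit, rose 1.6-fold, at 3.87 ± 0.282 CPM in D2 and 2.43 ± 0.0984 CPM in B6 (SD, n = 3 each; log2 difference 0.67 ± 0.12, adjusted p = 0.000704 by edgeR). Pop4, another subunit, rose 1.13-fold (30.2 ± 0.396 CPM in D2 and 26.8 ± 0.309 CPM in B6, adjusted p = 0.00651 by edgeR). Pop1, the largest subunit, fell 1.31-fold, at 6.11 ± 0.576 CPM in D2 and 7.98 ± 0.618 CPM in B6 (adjusted p = 0.00772 by edgeR). Pop5 fell 1.22-fold, at 18.6 ± 0.695 CPM in D2 and 22.6 ± 1.48 CPM in B6 (adjusted p = 0.00161 by edgeR). Rpp14, which with Pop4 was the most counted, stood at 28.1 ± 0.806 CPM in D2 and 26.6 ± 0.737 CPM in B6 (adjusted p = 0.236 by edgeR). The share called, 4 of 11, was near that of all genes.

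Of the 7 genes of the 7SK particle and P-TEFb, 2 rose, 0 fell and 5 did not pass, with a median log2 difference of 0.05. The share called, 28.6%, was near the 29.7% of all tested genes. Hexim2, an inhibitor of P-TEFb, rose 1.21-fold (24.2 ± 0.797 CPM in D2 and 19.9 ± 0.665 CPM in B6, adjusted p = 0.000637 by edgeR). The cyclin Ccnt2 rose 1.11-fold (95.3 ± 3.29 CPM in D2 and 86.1 ± 2.87 CPM in B6, adjusted p = 0.00943 by edgeR). Ccnt1, the most counted of the list, stood at 145 ± 2.39 CPM in D2 and 142 ± 3.85 CPM in B6 (adjusted p = 0.505 by edgeR). At an unadjusted p under 0.05, 3 were higher and 0 lower by edgeR, a threshold that at least the 29.7% of all tested genes called also pass. DESeq2 and limma-voom each called 2 higher and 0 lower. Without B6 replicate 2 Ccnt2 did not pass and the calls numbered 1 rather than 2.

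RNA polymerase III is built of subunits of its own and of others shared with polymerases I and II. Of 18 subunit genes, 4 rose, 2 fell and 12 did not pass, with a median log2 difference of 0.02. The share called, 33.3%, was near the 29.7% of all tested genes. The 4 that rose were Polr3k (1.2-fold, adjusted p = 0.000159 by edgeR), Polr3b (1.19-fold, 0.000437), Polr3f (1.18-fold, 0.000249) and Polr3gl (1.12-fold, 0.00795), all particular to this polymerase by name. Polr3f, with Polr3k one of its more counted subunits, had 67.3 ± 0.882 CPM in D2 and 56.9 ± 2.22 CPM in B6. The 2 that fell, Polr1d (1.11-fold, adjusted p = 0.0252 by edgeR) and Polr2l (1.10-fold, 0.0354), encode subunits shared with other polymerases. Other subunits of either kind, such as Polr3a, Polr3e, Polr2e and Polr2k, did not pass. The call of Polr2l was lost with the DESeq2 Wald test and without any 1 library other than B6 replicate 2, that of Polr1d without D2 replicate 2 or B6 replicate 1, and that of Polr3gl without B6 replicate 2.

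Among 19 initiation factors, 4 rose, 0 fell and 15 did not pass, with a median log2 difference of 0.05, and the share called, 21.1%, was below the 29.7% of all tested genes. Snapc5, Snapc4 and Snapc3, subunits of the complex that binds the upstream promoters of genes such as Rpph1 and Rmrp, rose 1.2-fold (16.7 ± 0.550 CPM in D2 and 13.9 ± 1.31 CPM in B6, adjusted p = 0.0104 by edgeR), 1.11-fold (adjusted p = 0.0392) and 1.11-fold (adjusted p = 0.0411). The other subunits of that complex, Snapc1 and Snapc2, had log2 differences of -0.04 ± 0.05 and -0.10 ± 0.07 (adjusted p = 0.569 and 0.355 by edgeR) and were added after their values were seen. Gtf3c3, a subunit of the factor that binds tRNA genes, rose 1.13-fold (80.1 ± 1.62 CPM in D2 and 70.7 ± 1.19 CPM in B6, adjusted p = 0.00127 by edgeR). Gtf3c1, the most counted, stood at 166 ± 1.69 CPM in D2 and 160 ± 9.26 CPM in B6 (adjusted p = 0.385 by edgeR). The polymerase III repressor Maf1 stood at 103 ± 4.47 CPM in D2 and 96.7 ± 1.04 CPM in B6 (adjusted p = 0.0756 by edgeR). At an unadjusted p under 0.05, 6 were higher and 0 lower by edgeR. That looser threshold is passed by at least the 29.7% of all tested genes that were called. Snapc4 lost its call in 7 and Snapc3 in 8 of the 13 alternatives, and Snapc5 lost its call without B6 replicate 1. The 4 calls became 2 with the DESeq2 Wald test, with the replicate block, and without D2 replicate 1, D2 replicate 3, B6 replicate 1 or B6 replicate 2.

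**Figure D5:**
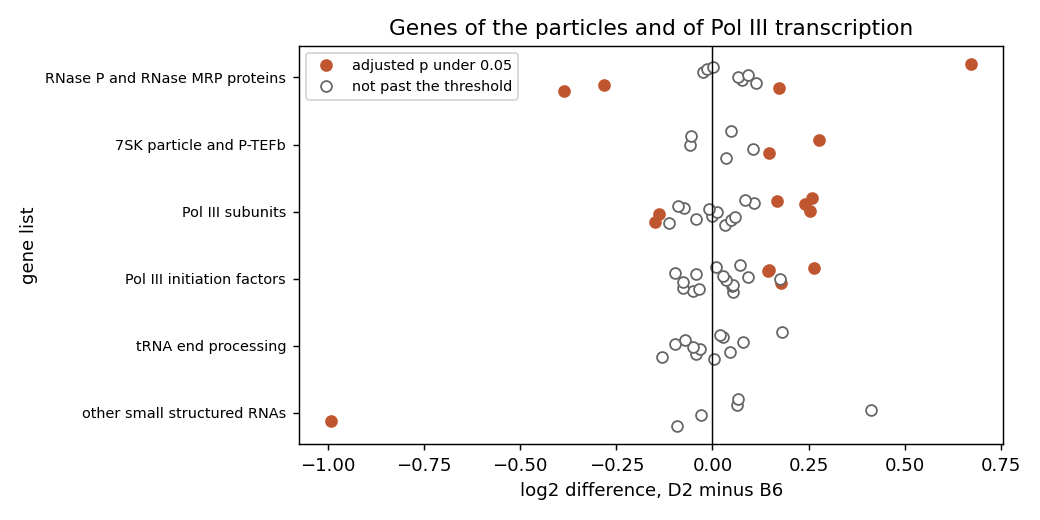
Log2 difference (D2 minus B6, horizontal axis) of each tested gene in 6 lists, with filled points for genes at an adjusted p under 0.05 by edgeR. The largest differences are Scarna17 at -0.99 and Rpp40 at 0.67, and no gene of the tRNA end processing list passed.

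Of 12 genes of tRNA end processing, 0 passed in either direction by edgeR, DESeq2 or limma-voom, where edgeR called 29.7% of all tested genes. The median log2 difference of the 12 was -0.01, and 1 had an unadjusted p under 0.05 by edgeR. Without B6 replicate 3, 1 of the 12 was called. Ssb, the La protein that binds the 3′ end of new polymerase III transcripts, stood at 193 ± 4.64 CPM in D2 and 199.8 ± 6.65 CPM in B6 (adjusted p = 0.331 by edgeR). The CCA-adding enzyme Trnt1 stood at 77.2 ± 2.88 CPM in D2 and 73 ± 1.81 CPM in B6 (adjusted p = 0.139 by edgeR). Small Cajal body RNAs guide the modification of spliceosomal RNAs, and they made up the tested members of the list of other small structured RNAs, where 1 of 6 fell in D2 and 5 did not pass. The share called was 16.7%, beside 29.7% of all tested genes. Without B6 replicate 2, 3 of the 6 were called. Scarna17 was the 1 that fell, 1.99-fold, at 9.33, 8.49 and 9.06 CPM in D2 replicates 1, 2 and 3 and 17.2, 17.4 and 19.0 CPM in B6 replicates 1, 2 and 3 (adjusted p = 2.97e-08 by edgeR). Scarna2, the most counted, stood at 675 ± 26 CPM in D2 and 689.5 ± 12.6 CPM in B6 (adjusted p = 0.619 by edgeR), and Scarna13 at 77 ± 1.43 CPM in D2 and 82.1 ± 2.35 CPM in B6 (adjusted p = 0.0734 by edgeR). Other polymerase III transcripts, such as 7SL, Y, vault, U6 and 5S RNAs, were not analysed here.

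Likeness of profile was measured as the root mean square difference of log2 CPM over the 6 libraries, each gene centred on its own mean. Nearest to Rprl3 was Rprl2 (1.45), followed by Serpina3h (2.06). For Rprl2 the nearest was Rprl3 (1.45), followed by Serpina3h (1.72). Nearest to Rprl1 were Tescl (0.395), Serpina3f (0.467) and Rtkn2 (0.512). All of these were far higher in D2. The own root mean square deviations of Rprl3, Rprl2 and Rprl1 were 5.57, 4.81 and 2.33. They come mostly from the strain gap, so only genes with such a gap could lie near. For Rpph1, whose own root mean square deviation was 0.186, the nearest were Slc8b1 (0.0483), Mcm5 (0.0607) and Lzts1 (0.0639). Rmrp, with a deviation of 0.177, lay nearest to Prx (0.0567), Cenpn (0.0577) and Tbc1d25 (0.0608).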

How the data were processed

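RNA of retina from 3 D2 and 3 B6 libraries was sequenced. Per the submitters' processing notes, the build was mm10 and the tools FastQC, STAR, SAMtools and edgeR, without versions. The authors deposited a table of unnormalized counts by gene symbol and a table of scaled scores by strain. Count columns were mapped by their titles.

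The strain test was run in R 4.3.3 with edgeR 4.0.16, after filterByExpr (18588 genes) and TMM scaling, with a quasi-likelihood fit of strain (D2 minus B6), Benjamini-Hochberg adjustment over all tested genes and a threshold of 0.05. Standard errors are the log2 difference divided by the root of the F statistic. They are not given for the Rprl genes, whose few B6 counts make this value unreliable. CPM values are TMM-scaled, except the CPM allowed by a count of 0, which was taken from total counts alone. The fit was tested on simulated data. Of the features, 29353 matched a GENCODE M21 symbol. Sequences were aligned locally with Biopython 1.88, and tables were made with pandas 2.3.3, scipy 1.17.1 and Python 3.11.15. The alternatives are named in the closing section.

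The genes and lists were chosen with earlier results of these data known. Named from each list were up to 4 genes with the lowest adjusted p past the threshold and the 2 most abundant, from the surroundings the nearest counted and overlapping genes, and the 3 likest genes of each profile, without clones or pseudogenes by symbol; 1 gene that this rule names is not reported here. Rn7sk was not analysed here.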

Additional observations from a re-analysis of the deposited data

How the results depend on the processing

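Alternatives were DESeq2 size factors, upper quartile factors, a filter of 1 CPM in at least 3 libraries, no filter on genes with a count, the DESeq2 1.42.0 Wald test, limma-voom 3.58.1, the replicate number as a block and each library left out in turn. For the 5 genes, totals without a scaling factor and totals without small RNA features were also tried. Of 184 comparisons with the main value, 172 stayed within the spread between libraries or within 1.5 times the count, and 12 moved. The 172 include those of a list of other polymerase III RNAs with 0 tested genes, whose 0 calls could not change. None of the Rprl genes changed sign. Of 530 values for 41 other named genes, 493 kept their direction and their side of the threshold. A call was lost in 29, over Snapc3, Snapc4, Polr2l, Ttc5, Polr1d, Ccnt2, Polr3gl and Snapc5, and was gained in 2 (Maf1 without D2 replicate 2, Scarna13 without B6 replicate 2). The sign turned in 6, all of genes that did not pass: Arhgef39 at -0.045 without D2 replicate 1 and -0.064 without B6 replicate 1 (range with each library left out -0.064 to 0.083), Gtf3c1 at -0.0016 without B6 replicate 2 (-0.0016 to 0.079), Gm22714 at -0.12 without D2 replicate 2 and -0.26 without B6 replicate 2 (-0.26 to 0.47), and Gm25694 at -0.26 without D2 replicate 2 (-0.26 to 0.45). Rprl1 was not tested under the filter of 1 CPM. Leaving out each library gave log2 differences of 11.45 to 12.58 for Rprl3, 9.98 to 12.40 for Rprl2, 6.51 to 8.72 for Rprl1, -0.26 to 0.03 for Rpph1 and -0.02 to 0.19 for Rmrp, and -0.10 to 0.20 for Rpph1 and the Rprl genes summed. Rprl1 was 6.24 with limma-voom. The cause of these moves was not tested. Of the lists, leaving out each library gave 1 to 2 calls for the 7SK particle, 2 to 4 for the initiation factors, 0 to 1 for tRNA end processing (1 without B6 replicate 3) and 1 to 3 for the other small structured RNAs (3 without B6 replicate 2). The initiation factors had 2 calls with the DESeq2 Wald test and 2 with the replicate block. Over all genes the calls numbered 5524, between 4502 and 5774 over the alternatives. The labels do not say whether the replicate number pairs the libraries. Deviations of same-numbered libraries correlated at 0.135, 0.0657 and -0.0296 for numbers 1, 2 and 3. Those of different numbers ranged from -0.204 (D2 replicate 2 with B6 replicate 1) to 0.164 (D2 replicate 2 with B6 replicate 3). With 3 libraries a strain, such correlations cannot exclude a batch shared by number. With the replicate block 5093 genes were called. Depth limits the Rprl genes in B6, where 0 to 6 counts stood in a library.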

Other observations

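Of 36 features outside the lists with a small RNA biotype in every gene model and a count, 15 were tested: 2 rose and 2 fell in D2 and 11 did not pass (adjusted p under 0.05 by edgeR). The share called, 26.7%, was near the 29.7% of all tested genes. The Cajal body RNA features Gm23119 and Gm22009 fell, and Gm25395 and Gm22442 rose; these 4 were named after their values were seen. Gm23119 had 607, 817 and 771 counts in D2 replicates 1, 2 and 3 and 1719, 1672 and 1300 counts in B6 replicates 1, 2 and 3 (1.78-fold lower in D2, adjusted p = 3.4e-08 by edgeR). Gm22009 fell 1.25-fold, at 246 ± 7.83 CPM in D2 and 308 ± 6.44 CPM in B6 (SD, n = 3 each; adjusted p = 6.47e-06 by edgeR). Gm25395 rose 1.86-fold, at 13.7 ± 1.48 CPM in D2 and 7.39 ± 1.14 CPM in B6 (adjusted p = 1.24e-05 by edgeR). Gm22442 rose 1.16-fold, at 43.9 ± 3.14 CPM in D2 and 37.8 ± 1.60 CPM in B6 (adjusted p = 0.00727 by edgeR). Apart from the genes above, the features annotated as ribozymes that were tested were Gm22714 and Gm25694, at 0.65 ± 0.173 and 0.485 ± 0.248 CPM in D2 and 0.634 ± 0.326 and 0.417 ± 0.0485 CPM in B6, and neither passed (adjusted p = 0.878 and 0.673 by edgeR).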
